A study of Mus musculus with 6 samples.

Results

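Aldo-keto reductases are a family of enzymes that use a nicotinamide cofactor to reduce aldehydes and ketones, among them steroids and sugars. The 9 genes described here, Akr1a1, Akr1b3, Akr1b7, Akr1b8, Akr1c12, Akr1c13, Akr1c14, Akr1c18 and Akr1e1, were taken by symbol from a table of 35688 mouse genes, in which each has 1 row. The list was chosen by symbol with the TPM values of the treated and untreated libraries already known, and the table holds that same contrast. Their levels and fold changes are therefore given as a description, with no test. Of the 9, 8 averaged 1 TPM or more across the 6 libraries, the limit for a gene to enter the comparison across all genes, and Akr1b7 did not. TPM is an abundance scaled for transcript length and library size, so levels on this scale can be set beside each other between genes.

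RNA was sequenced from m1102, a mouse ovarian surface epithelial line. The epithelium covers the ovary and is opened and repaired at ovulation. Of the 6 libraries, 3 came from untreated cells and 3 from cells kept for 4 days with 10 ng/mL TGFB1, a cytokine that induces matrix production and epithelial-mesenchymal transition. The medium, as the labels describe it, was alpha-MEM with serum, an insulin-transferrin supplement and EGF, and it was shared by both groups. The results describe 1 line in culture. The labels do not say whether the 3 libraries of a group came from separate cultures, so a p-value here reflects how far these libraries scatter, and that scatter may be technical.

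Progesterone is inactivated in the ovary by 20-alpha-hydroxysteroid dehydrogenase, the product of Akr1c18, which reduces its 20-keto group. This enzyme is best known from the corpus luteum, where prolactin signalling through STAT5 holds it down and prostaglandin F2alpha raises it before luteolysis. Other members act elsewhere: Akr1c14 encodes a 3-alpha-hydroxysteroid dehydrogenase, Akr1b3 encodes aldose reductase, which turns glucose into sorbitol in the polyol pathway, and Akr1a1 encodes the aldehyde reductase of the glucuronate pathway.

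The 4 Akr1c members lie in 1 cluster on mouse chromosome 13 and are close in sequence, so their promoters are shown to let a reader see what sets the genes apart. The 250 bases before the RefSeq transcription start (GRCm38.p6) are chr13:4150647-4150896 (minus strand) for Akr1c18, chr13:4059341-4059590 (plus) for Akr1c14, chr13:4190937-4191186 (plus) for Akr1c13 and chr13:4279400-4279649 (minus) for Akr1c12. They are written 5′ to 3′ on the strand of the gene, and capitals mark a match to CAGACA, an element that SMAD proteins bind. Shorter or other forms of SMAD element were not searched or marked.
Akr1c18: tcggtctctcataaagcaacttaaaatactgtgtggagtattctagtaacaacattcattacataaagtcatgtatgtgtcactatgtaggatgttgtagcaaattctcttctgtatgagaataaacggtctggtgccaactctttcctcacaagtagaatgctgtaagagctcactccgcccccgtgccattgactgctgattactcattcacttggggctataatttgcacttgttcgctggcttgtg
Akr1c14: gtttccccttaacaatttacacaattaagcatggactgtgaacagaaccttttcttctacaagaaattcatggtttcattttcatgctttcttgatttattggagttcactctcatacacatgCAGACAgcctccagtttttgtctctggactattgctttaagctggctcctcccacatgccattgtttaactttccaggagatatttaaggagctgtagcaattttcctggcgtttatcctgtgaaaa
Akr1c13: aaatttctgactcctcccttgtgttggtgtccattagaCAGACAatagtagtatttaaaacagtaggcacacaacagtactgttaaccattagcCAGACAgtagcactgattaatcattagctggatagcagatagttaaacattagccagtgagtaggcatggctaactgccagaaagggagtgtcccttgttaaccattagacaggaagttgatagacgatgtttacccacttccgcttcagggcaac
Akr1c12: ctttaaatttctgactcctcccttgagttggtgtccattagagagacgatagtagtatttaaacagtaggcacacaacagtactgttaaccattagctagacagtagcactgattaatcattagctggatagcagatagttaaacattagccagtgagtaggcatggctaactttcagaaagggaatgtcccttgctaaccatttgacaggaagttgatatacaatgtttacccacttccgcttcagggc
Akr1c12 and Akr1c13 were 92.5% identical over these bases, while Akr1c18 was 55.9% identical to Akr1c14, 50.8% to Akr1c13 and 51.2% to Akr1c12. Beside these, Akr1c18 was 51.0%, 50.2% and 48.0% identical to Akr1c6, Akr1c19 and Akr1c21, other genes of the cluster. Its values against Akr1c13 and Akr1c12 therefore do not stand out. The Akr1c14 start used by RefSeq lies 10580 bases inside the gene as GENCODE draws it, so another start is annotated upstream. For the other 3 genes the starts differ by 8 to 37 bases between the annotations.

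Promoter entries were found for 8 of the 9 members, each of 300 bases that run past the start, and were searched on both strands for 3 elements. CAGACA occurred in Akr1c13, with matches that begin at -212 and -156 from the start, and in Akr1c14 at -127. It was not matched in Akr1c18, Akr1c12 or the other members searched, and 21.04% of 32851 mouse promoters of the same length hold it. The core of the antioxidant response element, TGACNNNGC, which NRF2 binds, and the AP-1 element TGANTCA, which can overlap it, were in 12.4% and 7.81% of promoters and were matched in none of the 8 members. These are letters in a short window, not measured sites.

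Among these 4 Akr1c genes the proteins follow the same order as the promoters. Outside them the order does not hold. Akr1c18 was closest in protein to Akr1c21, at 71.5%, whose promoter was the least like its own of those compared, at 48.0%. Read from the GENCODE transcripts, the Akr1c12 and Akr1c13 proteins were 94.1% identical, and Akr1c18 was 70.0% identical to Akr1c14, 65.3% to Akr1c13 and 66.3% to Akr1c12. All 4 Akr1c proteins have 323 residues. Akr1b3 and Akr1b8, with 316 residues each, were 69.0% identical, and Akr1b7 and Akr1b8 82.3%. Akr1a1 stood furthest from Akr1c18, at 39.1%, with 325 residues.

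Across all 12257 genes that entered the comparison, limma called 1937 higher (15.8%) and 1788 lower (14.6%) with TGFB1 at an adjusted p under 0.05. After rescaling without mitochondrially encoded and the 20 most abundant genes the split was 2391 higher and 1423 lower. For 2891 genes (23.6%) each treated library was below each untreated one. TGFB1 replicate 1 stood apart: in 1305 of the 1788 genes called lower it was the lowest of the treated libraries. Genes called higher were not counted in this way. Among them TGFB1 replicate 1 was the highest treated library for Ptgs2, at 779 TPM against 426 and 396. It was also the highest for Sult1e1, at 15.3 against 7.07 and 7.76 TPM, and the lowest for Hsd11b1, at 13.8 against 19.3 and 18.6 TPM. Without untreated replicate 1, 2 or 3 the counts were 1181, 1346 and 1113 higher and 1130, 1125 and 917 lower. Between 17758 and 19288 genes were above 0 in a library, and read depth is unknown because the table holds no counts.

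The line carried several markers of its labelled cell type, and some of fibroblasts. Among 9 markers of ovarian surface epithelium, Msln stood at 508 ± 62.4 and 408 ± 25.6 TPM (mean ± SD, n = 3, untreated first, here and below), Wt1 at 181 ± 11.6 and 144 ± 35.1, and Gata4 at 19.7 ± 1.58 and 19.3 ± 2.66, while Krt8 and Lhx9 were under 1 TPM. The keratin genes Krt7 and Krt18 and the uroplakin gene Upk3b were lower with TGFB1 (limma adjusted p = 0.00362, 0.00119 and 0.0377), and 2 markers were without untreated replicate 2 or untreated replicate 3. Krt19, at 1.65 ± 0.334 and 0.246 ± 0.213 TPM, did not enter the comparison. The summed level of the 9 markers ran from 1489 to 1574 TPM untreated and from 757 to 1056 with TGFB1. Of 4 fibroblast markers, Dcn was at 1362 ± 112 and 616 ± 28.0 TPM and Col1a1 at 6.74 ± 0.517 and 161 ± 49.8 TPM. Pdgfra was at 6.34 ± 1.33 and 7.65 ± 0.326 TPM, and Lum was under 1 TPM. In RNA from a whole culture, fewer cells of a kind and less RNA per cell cannot be told apart.

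With TGFB1, Akr1c18, Akr1c14, Akr1b3 and Akr1b8 stood lower in each of the 3 treated libraries than in any untreated one. Akr1c13, Akr1c12, Akr1a1 and Akr1e1 overlapped between the groups. Of the 8 members that entered the comparison, 4 were called lower and 0 higher, beside 14.6% and 15.8% of all genes, and 4 had groups that did not overlap, beside 23.6%. Because the members were picked with this contrast known, nothing is read from these counts. Their median log2 fold change was -0.49, beside 0.02 over all genes. The count of members past the threshold was 2 without any one untreated library and with no filter, where Akr1c14 and Akr1b3 did not pass.

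**Figure D1:**
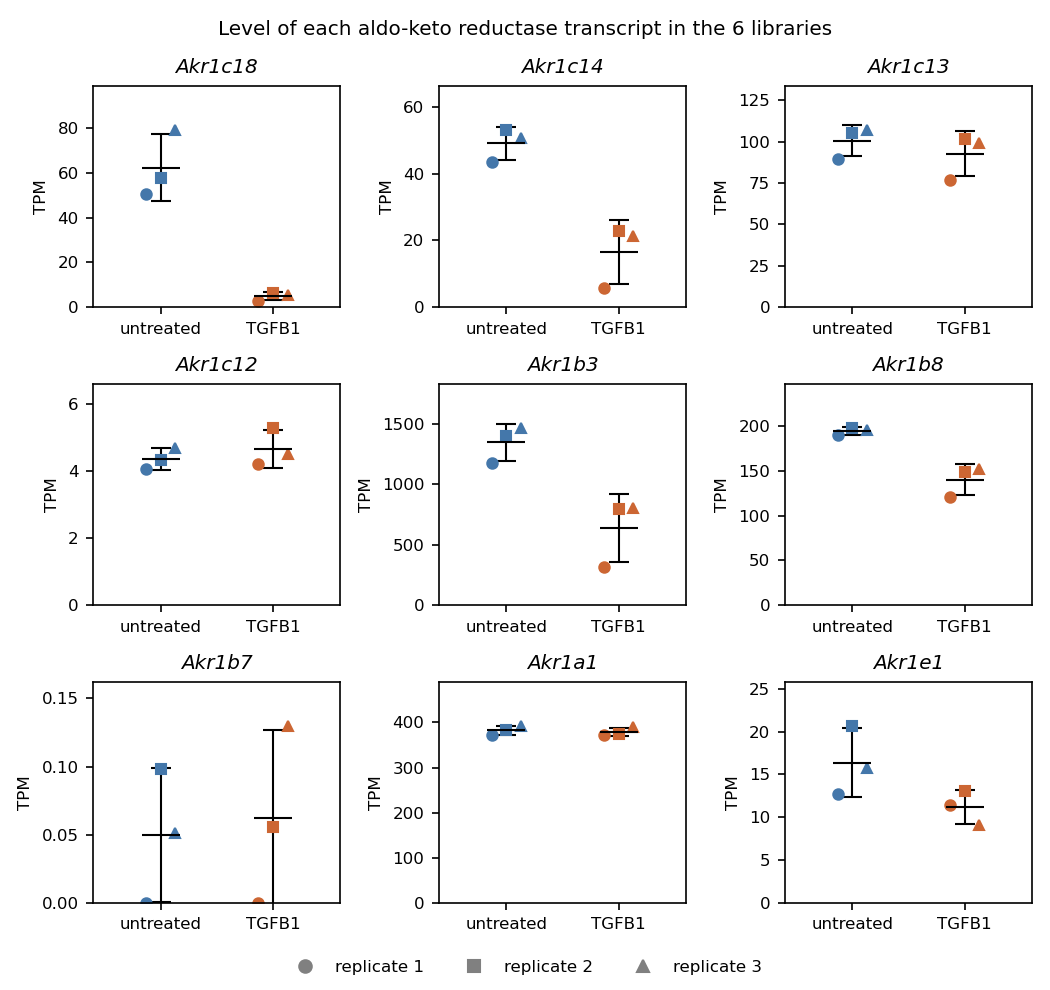
Level of each of the 9 members (y axes, TPM, each from 0 with its own scale) in untreated and TGFB1 libraries. Symbols are libraries by replicate number, and bars are the mean ± SD of 3. The treated points of Akr1c18, Akr1c14, Akr1b3 and Akr1b8 lie below every untreated point, and TGFB1 replicate 1 is the lowest of the treated points in the same panels.

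Akr1c18 lies on the minus strand of chromosome 13 at 4132615 to 4150654 (GRCm38, GENCODE M21). Its level was 50.5, 57.7 and 79.1 TPM in untreated replicates 1 to 3 and 2.84, 6.39 and 5.39 TPM in TGFB1 replicates 1 to 3. Every treated library was below every untreated one by a wide margin, and TGFB1 replicate 1 was the lowest. The mean went from 62.4 ± 14.9 to 4.87 ± 1.83 TPM, so 7.80% of the untreated level was left. The log2 fold change was -3.46 (SE 0.269) after adding 1 TPM, which makes the drop of a gene this low look smaller, and its rank among the 12257 genes, counted from the most negative, was 2. It was -3.18 without TGFB1 replicate 1 and -2.77 with a pseudocount of 5 TPM. By the difference in TPM its rank was 392.

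Akr1c14, the 3-alpha-hydroxysteroid dehydrogenase gene, is its neighbour on the plus strand at 4049011 to 4090688, 41.9 kilobases away. It stood at 43.5, 53.0 and 50.7 TPM untreated and at 5.62, 22.8 and 21.2 TPM with TGFB1. TGFB1 replicate 1 was far below the other treated libraries, at 25.5% of their mean, and these in turn were below the untreated ones. The mean went from 49.1 ± 4.98 to 16.5 ± 9.50 TPM, a log2 fold change of -1.72 (SE 0.466). Without TGFB1 replicate 1 it was -1.12, more than 1.5 times smaller. The levels of Akr1c14 and Akr1c18 overlapped in untreated cells.

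Akr1c13 and Akr1c12, close copies of one another, sit on the far side of Akr1c18, Akr1c13 on the plus strand at 4191150 to 4205596 and Akr1c12 on the minus strand at 4268176 to 4279433. Akr1c13 was at 89.8, 105 and 107 TPM untreated and at 77.0, 102 and 99.4 TPM with TGFB1. The groups overlapped, with TGFB1 replicate 1 the lowest of the 6 libraries. The log2 fold change was -0.12 (SE 0.124), and 0.00 without TGFB1 replicate 1. Akr1c12 was at 4.05, 4.31 and 4.68 TPM untreated and at 4.19, 5.28 and 4.50 TPM with TGFB1, again with overlapping groups (log2 fold change 0.08, SE 0.114, and 0.00 without TGFB1 replicate 2). Of the 31-base words in their transcripts, 39.2% for Akr1c12 and 33.7% for Akr1c13 occur in another gene, so the division of reads between the copies is uncertain. Summed, they gave a log2 fold change of -0.11.

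The makeup of the Akr1c transcripts therefore differed between the groups. Their sum was 216 ± 27.0 TPM untreated and 119 ± 25.4 TPM with TGFB1, 54.9% of the untreated level. Akr1c18 was 28.6% of this sum untreated and 4.00% with TGFB1, and Akr1c14 was 22.7% and 13.1%. Akr1c13 made up 46.6% and 78.9%, although its own level overlapped between the groups. Without Akr1c18 the sum was 154 ± 14.5 and 114 ± 23.6 TPM.

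**Figure D2:**
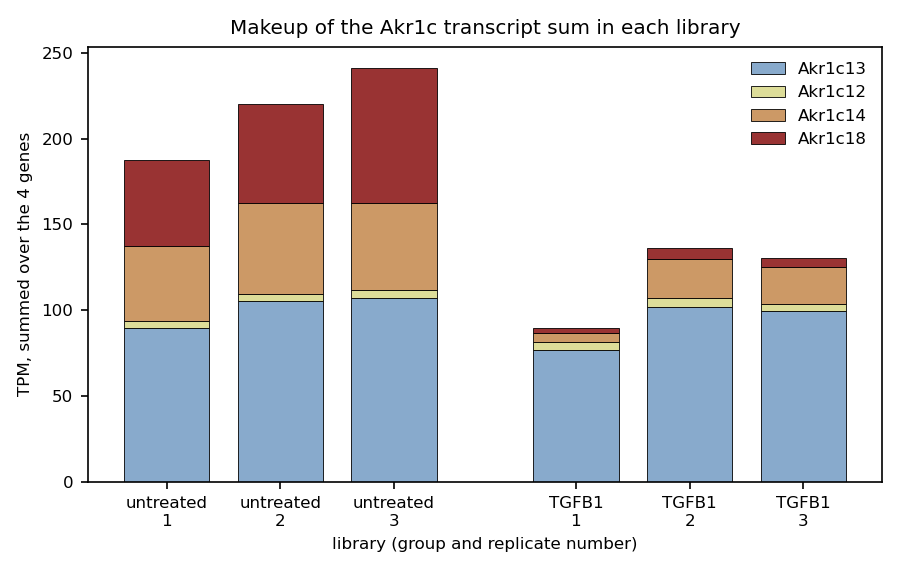
Summed level of the 4 Akr1c members (y axis, TPM from 0) in each of the 6 libraries (x axis), split by gene. The Akr1c13 part is of similar height in both groups, while the Akr1c18 part shrinks from 50.5 to 79.1 TPM untreated to 2.84 to 6.39 TPM with TGFB1.

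The other Akr1c genes of the cluster were at or near 0. Akr1c6, Akr1c20 and Akr1c21 were listed at 0 in each of the 6 libraries, and Akr1c19, between Akr1c13 and Akr1c12, was at 0.128 ± 0.0172 and 0.160 ± 0.0382 TPM. The unprocessed pseudogene Gm18857, which overlaps Akr1c14, was listed at 0 as well. In contrast, the transcribed pseudogene Gm9973, on the minus strand at 4350397 to 4391265, was more abundant than each Akr1c gene. It was at 959, 1260 and 1135 TPM untreated and at 176, 615 and 646 TPM with TGFB1, so the groups did not overlap and TGFB1 replicate 1 was again far below the others. Its log2 fold change of -1.43 (SE 0.477) missed the threshold (limma adjusted p = 0.0622). Of its 31-base words 6.3% occur in another gene.

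**Figure D3:**
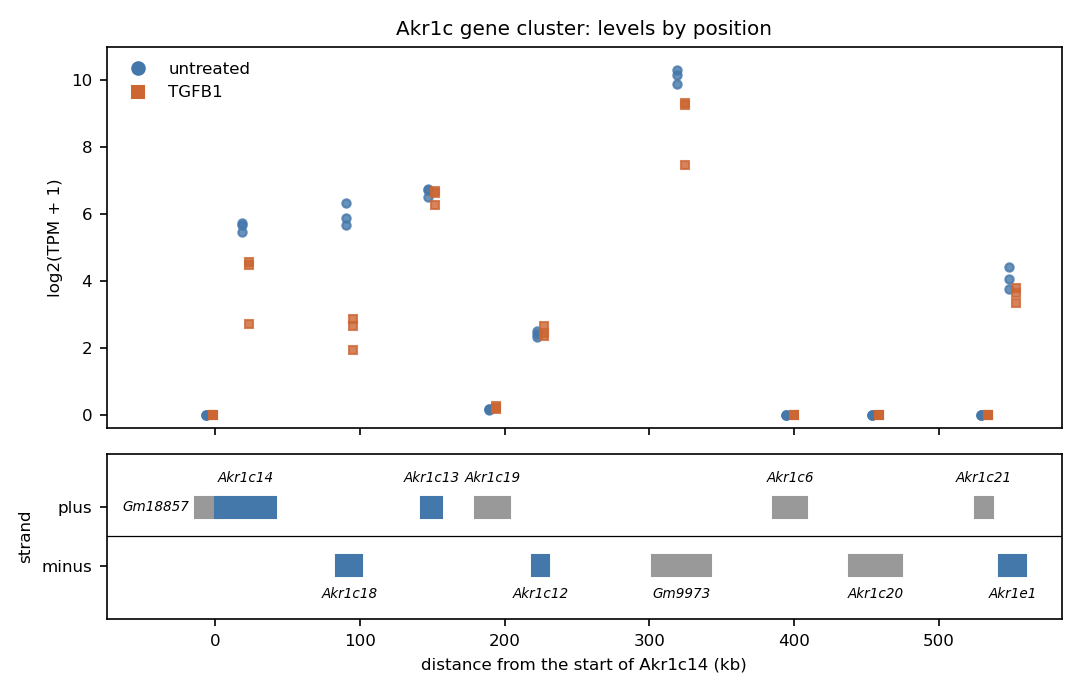
Levels along the Akr1c cluster, as log2(TPM + 1) per library (upper y axis) against distance from the start of Akr1c14 in kb (x axis); the lower strip shows each gene by strand, members in blue and other genes in grey. The groups do not overlap for Akr1c14, Akr1c18 and Gm9973, and they overlap for Akr1c13 and Akr1c12.

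The Akr1b members lie together on chromosome 6, over 120.7 kilobases. Akr1b3, on the minus strand at 34302434 to 34317478, was the most abundant of the 9 members, at 1174, 1404 and 1467 TPM untreated and at 316, 799 and 800 TPM with TGFB1. All treated libraries were below all untreated ones, and TGFB1 replicate 1 was at 39.5% of the mean of the other treated libraries. The mean went from 1348 ± 154 to 638 ± 279 TPM, with a log2 fold change of -1.19 (SE 0.351), or -0.75 without TGFB1 replicate 1. The difference of -710 TPM ranks 13 among the 12257 genes, counted from the most negative, while the log2 fold change ranks 211. Of the 31-base words of Akr1b3, 15.2% occur in another gene, and 14.1% in Gm38056, a gene model of unsettled type. Gm6644, Gm6736 and Gm12138 hold 9.76%, 8.99% and 8.02% of them. The words were pooled over all its transcripts, among them retained-intron models of 5024 and 3254 bases and a protein-coding one of 1387. The share within the protein-coding transcript was not computed and may be higher, so the level of Akr1b3 is uncertain to that extent. The antisense gene Gm14546, which spans it, was not found by symbol among the 35688 genes, so it has no level here.

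Akr1b8, which encodes a fibroblast growth factor-induced aldose reductase-like protein, is on the plus strand at 34354119 to 34368463. It was at 190, 198 and 196 TPM untreated and at 121, 148 and 152 TPM with TGFB1. The untreated libraries lay close together and the treated ones below them. The mean went from 195 ± 4.16 to 140 ± 17.0 TPM, a log2 fold change of -0.48 (SE 0.093). Akr1b10, its neighbour and not one of the 9, was at 22.9 ± 1.51 and 20.3 ± 3.16 TPM with overlapping groups (log2 fold change -0.18, limma adjusted p = 0.307).

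Akr1b7, on the plus strand at 34412334 to 34423142, encodes a relative of aldose reductase known from the adrenal gland and vas deferens. It was at 0, 0.0981 and 0.0512 TPM untreated and at 0, 0.0559 and 0.130 TPM with TGFB1, under the 1 TPM limit in every library, and no fold is given. The Akr1b sum, which Akr1b3 dominates, was 1543 ± 158 TPM untreated and 779 ± 296 TPM with TGFB1.

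Akr1a1, the aldehyde reductase gene on the minus strand of chromosome 4 at 116636510 to 116651680, was at 372, 382 and 392 TPM untreated and at 372, 374 and 389 TPM with TGFB1. The libraries of both groups lay within the same narrow range. Its log2 fold change was -0.01 (SE 0.050), and 0.04 both under quantile normalization and after rescaling without the most abundant genes. Akr1e1, which encodes 1,5-anhydrofructose reductase and ends the chromosome 13 cluster on the minus strand at 4590750 to 4609174, was at 12.7, 20.7 and 15.7 TPM untreated and at 11.5, 13.03 and 9.13 TPM with TGFB1. Its groups overlapped through untreated replicate 1 and TGFB1 replicate 2, and the log2 fold change was -0.49 (SE 0.191).

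Over all 9 members the summed level was 2159 ± 197 TPM untreated and 1287 ± 327 TPM with TGFB1, or 59.6%. Akr1b3 made up 62.4% of the sum untreated and 47.7% with TGFB1, and Akr1a1 17.8% and 30.9%. In untreated cells the order from the highest mean was Akr1b3, Akr1a1, Akr1b8, Akr1c13, Akr1c18, Akr1c14, Akr1e1, Akr1c12 and Akr1b7. Akr1c18 and Akr1c14 overlapped in that order, 50.5 to 79.1 against 43.5 to 53.0 TPM. With TGFB1 Akr1c18 stood among the low members, with 2.84 to 6.39 TPM against 4.19 to 5.28 TPM for Akr1c12. TGFB1 replicate 1 was the lowest of the 6 libraries for 6 of the 9 members.

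**Figure D4:**
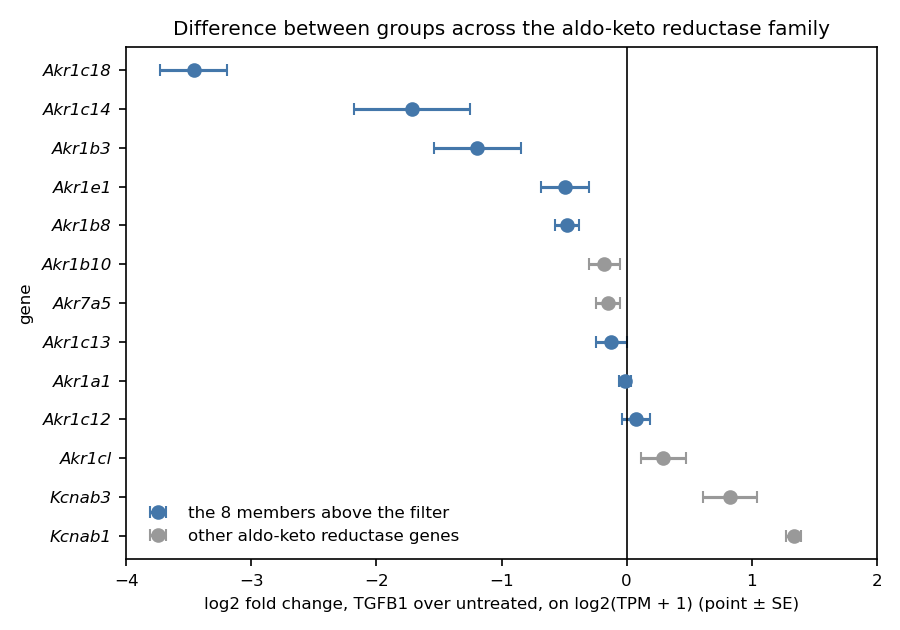
Log2 fold change of TGFB1 over untreated on log2(TPM + 1) (x axis, point ± SE) for the 8 members above 1 TPM, in blue, and 5 other aldo-keto reductase genes, in grey (y axis). The members run from -3.46 for Akr1c18 to 0.08 for Akr1c12, and the other genes from -0.18 for Akr1b10 to 1.34 for Kcnab1.

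Other genes of the family that passed were higher with TGFB1. Of 11 other aldo-keto reductase genes 5 entered the comparison, of which 2 rose, 0 fell and 3 did not pass. Kcnab1, a beta subunit of voltage-gated potassium channels with the aldo-keto reductase fold, rose from 110 ± 5.51 to 278 ± 9.69 TPM (log2 fold change 1.34, limma adjusted p = 0.00011). Kcnab3, another such subunit, rose from 0.673 ± 0.331 to 1.96 ± 0.583 TPM (0.83, limma adjusted p = 0.0289), a call lost in 5 alternatives. Akr7a5, an aflatoxin aldehyde reductase gene, was at 25.6 ± 2.11 and 23.0 ± 2.18 TPM (limma adjusted p = 0.282).

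The genes whose pattern over the 6 libraries was most like that of Akr1c18 were Crxos, Cyp2f2, Plekha6, Gda and Ugt1a7c. Likeness was the root mean square difference of log2(TPM + 1) values, each gene centred on its own mean, and it was 0.22, 0.25, 0.35, 0.41 and 0.41. Cyp2f2, a cytochrome P450 gene, was at 26.9 ± 4.74 and 1.81 ± 1.31 TPM. Plekha6 was at 54.9 ± 6.01 and 6.53 ± 3.58 TPM, and Gda, the guanine deaminase gene, at 12.1 ± 2.22 and 1.12 ± 0.697 TPM. Crxos was at 17.3 ± 5.16 and 0.893 ± 0.366 TPM and the glucuronosyltransferase gene Ugt1a7c at 137 ± 1.75 and 20.3 ± 8.86 TPM, with 27.8% and 55.7% of their 31-base words shared with other genes. Of the members Akr1c14 was nearest, at 0.94 and rank 83, followed by Akr1b3 at 1.15 and rank 190.

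Genes of the pathways around the members were counted from lists written from textbook knowledge, with earlier results of these data known. Their counts and medians are therefore given as a description. Over the 8 lists 119 genes entered the comparison, each counted once, of which 18 rose and 46 fell, beside 15.8% and 14.6% of all genes tested, shares that also stand beside the count of each list below. The share of rises was near that of all genes. The median log2 fold change was -0.18 beside 0.02 over all genes. With no filter 29 fell. Without untreated replicate 1, 2 or 3, 30, 28 and 24 fell, and 11 rose without untreated replicate 1.

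**Figure D5:**
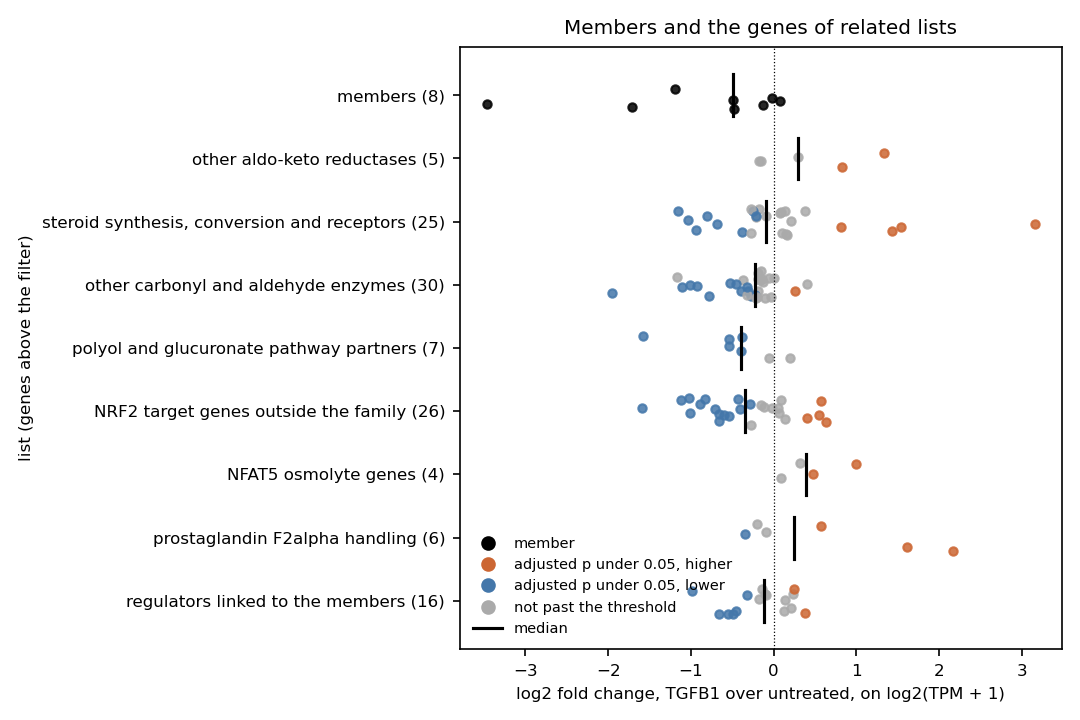
Log2 fold change of TGFB1 over untreated (x axis) for the members and for the genes of 8 related lists (y axis, number of genes in brackets). Each point is a gene, coloured by its limma call except for the members, and black ticks are medians. Polyol and glucuronate genes and NRF2 targets lie mostly below 0, with medians of -0.39 and -0.34, and the steroid list spans both sides.

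Akr1c18 acts on progesterone, and the steroid genes around it went both ways. Of 40 listed genes 25 entered the comparison, of which 4 rose, 8 fell and 13 did not pass. Sult1e1, the oestrogen sulfotransferase gene, went up from 0.180 ± 0.0742 TPM to 10.1 ± 4.58 TPM (3.15 in log2 fold change, limma adjusted p = 0.000707). Hsd11b1, whose enzyme regenerates active glucocorticoid, rose from 5.90 ± 1.95 to 17.3 ± 3.00 TPM (1.43, limma adjusted p = 0.00502), and Hsd17b3, a 17-beta-hydroxysteroid dehydrogenase gene, from 0.109 ± 0.142 to 2.24 ± 0.486 TPM (1.54, limma adjusted p = 0.00227). Paqr8, a membrane progesterone receptor gene named after its value was seen, was the other that rose, from 0.591 ± 0.0675 to 1.80 ± 0.102 TPM (0.82, limma adjusted p = 0.00673). Paqr7, another membrane progesterone receptor gene, also named after its value was seen, was more abundant and fell from 25.7 ± 5.78 to 14.3 ± 3.30 TPM (-0.80, limma adjusted p = 0.0296), a call lost without untreated replicate 2, untreated replicate 3 or TGFB1 replicate 2 and with no filter.

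On the supply side, Star, which carries cholesterol into mitochondria, fell from 300 ± 23.9 to 143 ± 55.7 TPM (log2 fold change -1.15, limma adjusted p = 0.0279), a call lost without any one untreated library and with no filter. The cholesterol receptor gene Scarb1 and the mitochondrial electron carrier genes Fdx1 and Fdxr, named after their values were seen, fell too (-0.93, -0.69 and -1.03). Tspo and Stard3, of the same list, did not pass. Tspo was at 335 ± 8.03 and 288 ± 22.6 TPM (limma adjusted p = 0.0501) and Stard3 at 27.5 ± 2.40 and 30.9 ± 0.967 TPM (limma adjusted p = 0.162). Cyp11a1 and Hsd3b1, which make progesterone from cholesterol, averaged under 1 TPM in both groups, and so did Cyp17a1 and Cyp19a1. The nuclear progesterone receptor gene Pgr was listed at 0 in each library. The count of steroid genes that fell was 4 without untreated replicate 2 or untreated replicate 3, 5 without untreated replicate 1 or TGFB1 replicate 2 or with no filter, and under a 5 TPM filter 2 rose.

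Star is also 1 of 9 markers of granulosa and luteal cells, the cells in which Akr1c18 is best known. Of these 9, 3 entered the comparison, 1 higher (Foxl2) and 2 lower (Star and Inha). The higher count was 0 without untreated replicate 1, untreated replicate 3, TGFB1 replicate 2 or TGFB1 replicate 3, and the lower count was 0 without untreated replicate 2 or untreated replicate 3 and 1 without untreated replicate 1 and with no filter. Fshr and Lhcgr were listed at 0 in every library, and Cyp11a1, Cyp19a1, Hsd3b1 and Amh were under 1 TPM. The summed level ran from 315 to 360 TPM untreated and from 111 to 216 TPM with TGFB1, most of it Star. Of 5 leukocyte markers Cd68 was lower (limma adjusted p = 0.0026) and Ptprc was under 1 TPM, with sums of 18.6 to 26.3 and 7.25 to 9.98 TPM. The part of these genes in the member values was not tested.

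Partners of Akr1b3 and Akr1a1 in the polyol and glucuronate pathways were lower where they passed. Of 14 listed genes 7 entered the comparison, of which 0 rose, 5 fell and 2 did not pass. Sord, sorbitol dehydrogenase, the step after aldose reductase, fell from 158 ± 9.43 to 53.8 ± 15.1 TPM (log2 fold change -1.58, limma adjusted p = 0.00264), with 35.9% of its 31-base words shared with another gene. Khk, the ketohexokinase gene that acts on fructose, fell from 31.05 ± 3.17 to 21.1 ± 2.72 TPM (-0.54, limma adjusted p = 0.0153). Ugp2 and Ugdh, which make UDP-glucose and UDP-glucuronate, fell from 85.5 ± 2.03 to 65.1 ± 1.59 and from 55.04 ± 7.999 to 37.2 ± 3.12 TPM (-0.39 and -0.54, limma adjusted p = 0.00332 and 0.0165), and Tkfc, the triokinase gene, was the fifth. Without untreated replicate 3 the count that fell was 3.

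Other enzymes of carbonyls and aldehydes showed 1 rise and 12 falls among 30 genes tested, with a median of -0.22. Adh1 fell from 9.19 ± 0.851 to 1.62 ± 0.165 TPM (log2 fold change -1.96, limma adjusted p = 2.00e-04) and Adh7, a retinol-oxidising alcohol dehydrogenase gene, from 127 ± 12.0 to 62.5 ± 7.10 TPM (-1.01, limma adjusted p = 0.00127). Dhrs7 fell from 63.9 ± 5.50 to 33.1 ± 1.61 TPM (-0.92, limma adjusted p = 0.000778), and Aldh6a1, a mitochondrial aldehyde dehydrogenase gene, from 31.8 ± 5.11 to 14.6 ± 4.51 TPM (-1.11, limma adjusted p = 0.0142). The gene that rose was Dhrs1 (0.26), a call kept without TGFB1 replicate 1 and lost without any one of the other libraries. The Aldh6a1 call was lost without untreated replicate 2 or untreated replicate 3. The falls numbered 6 without untreated replicate 2 or untreated replicate 3, 7 without untreated replicate 1 or with no filter, 8 without TGFB1 replicate 3, and 8 after rescaling without the most abundant genes.

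Several aldo-keto reductase genes are targets of NRF2, the transcription factor of the electrophile response. Of 28 other NRF2 targets 26 entered the comparison, of which 4 rose, 14 fell and 8 did not pass, with a median of -0.34. Ephx1, an epoxide hydrolase gene, fell from 488 ± 42.7 to 168 ± 53.3 TPM (log2 fold change -1.59, limma adjusted p = 0.00436). The ferritin heavy chain gene Fth1 fell from 8612 ± 453 to 4027 ± 750 TPM (-1.11, limma adjusted p = 0.00228), the transaldolase gene Taldo1 from 1834 ± 49.9 to 918 ± 208 TPM (-1.03, limma adjusted p = 0.00524) and the glutathione transferase gene Gstm1 from 19.8 ± 1.35 to 9.58 ± 2.59 TPM (-1.01, limma adjusted p = 0.00877), the last with 28.8% of its 31-base words shared. The 4 that rose were Txnrd1, Gsr, Slc7a11 and Gsta3. Without untreated replicate 3 the falls numbered 9, and 2 rose without untreated replicate 1, untreated replicate 2 or TGFB1 replicate 2 and with no filter.

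Nfe2l2, which encodes NRF2, was at 137, 144 and 140 TPM untreated and at 81.9, 115 and 114 TPM with TGFB1. It fell (log2 fold change -0.45, limma adjusted p = 0.0406), a call lost without any one untreated library, with no filter, under quantile normalization and after rescaling. Without TGFB1 replicate 1 its log2 fold change was -0.29. Keap1 and Bach1, listed with it, did not pass: Keap1 was at 39.4 ± 1.11 and 35.7 ± 1.98 TPM (limma adjusted p = 0.146) and Bach1 at 9.59 ± 1.31 and 8.91 ± 0.932 TPM (limma adjusted p = 0.591).

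The list of regulators linked to the members joins NRF2 and its partners with factors known to act on Akr1c18 in the ovary. Of its 18 genes 16 were tested, of which 2 rose, Nr5a1 and the NRF2 partner gene Maff, and 6 fell, Nfe2l2 among them, while Prlr and Nr1h3 were under the 1 TPM limit. Nr4a1, an orphan nuclear receptor that raises Akr1c18 in the corpus luteum, fell from 60.7 ± 8.38 to 30.7 ± 7.84 TPM (log2 fold change -0.99, limma adjusted p = 0.0119). Stat5a fell from 12.8 ± 1.09 to 8.40 ± 1.15 TPM and Stat5b from 27.5 ± 1.96 to 19.4 ± 2.97 TPM (limma adjusted p = 0.0128 and 0.0231). Cish, a STAT5 target, fell from 7.23 ± 0.449 to 4.26 ± 1.005 TPM (limma adjusted p = 0.0193). Socs2, listed beside Cish, did not pass, at 2.22 ± 0.399 and 2.75 ± 0.821 TPM with overlapping groups (limma adjusted p = 0.445). Nor did Jak2, at 19.2 ± 1.71 and 21.1 ± 0.351 TPM (limma adjusted p = 0.261). The prolactin receptor gene Prlr was at 0.0846 ± 0.0394 and 0.103 ± 0.0536 TPM.

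Nr5a1, which encodes steroidogenic factor, rose from 56.0 ± 1.99 TPM untreated to 66.8 ± 1.43 TPM (0.25, limma adjusted p = 0.018). Jund, an AP-1 gene, was at 142 ± 3.40 and 156 ± 9.08 TPM (0.14, limma adjusted p = 0.141) and passed without TGFB1 replicate 1; 50.1% of its 31-base words occur elsewhere. The calls of Stat5b, Cish and Nr5a1 were each lost without at least 1 library. The falls among regulators numbered 2 without untreated replicate 2 or untreated replicate 3 and with no filter, and 4 without untreated replicate 1 or TGFB1 replicate 3 and after rescaling. The rises numbered 0 without untreated replicate 1, untreated replicate 3 or TGFB1 replicate 3, and 1 without untreated replicate 2 or TGFB1 replicate 2, with no filter, with median-of-ratios scaling, under quantile normalization and with the replicate number as a block.

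NFAT5 switches on Akr1b3 when cells lose water. Of 4 genes tested from the list of Nfat5 and its other osmolyte targets, Nfat5 and the target Slc6a6 rose and 0 fell. The targets Slc38a2 and Hspa4l did not pass (limma adjusted p = 0.323 and 0.0657). Slc5a3, at 0.891 ± 0.0435 and 0.916 ± 0.0848 TPM, and Slc6a12, at 0.0426 ± 0.0462 and 0.0857 ± 0.115 TPM, were listed too but were under the 1 TPM limit. The taurine transporter gene Slc6a6, at 66.9 ± 5.68 TPM untreated, rose to 136 ± 22.6 TPM (log2 fold change 0.999, limma adjusted p = 0.00233), while Akr1b3 stood lower. Nfat5 itself rose from 14.9 ± 2.16 to 21.1 ± 3.43 TPM (0.47, limma adjusted p = 0.0447), a call lost without any one library except untreated replicate 2, with no filter, with median-of-ratios scaling, under quantile normalization and with the replicate number as a block. After rescaling without the most abundant genes 3 genes of the list rose.

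Prostaglandin F2alpha raises Akr1c18 in the corpus luteum, and aldose reductase can itself form this prostaglandin. Of 6 genes of its handling that were tested, 3 rose and 1 fell. Ptgs2, cyclooxygenase 2, rose from 112 ± 6.73 to 534 ± 213 TPM (log2 fold change 2.17, limma adjusted p = 0.00161), the exporter gene Abcc4 from 6.67 ± 0.525 to 22.5 ± 2.71 TPM (1.61, limma adjusted p = 0.000305) and Pla2g4a, the phospholipase gene, from 219 ± 20.9 to 326 ± 7.97 TPM (0.58, limma adjusted p = 0.00304). Ptgs1 fell from 141 ± 5.30 to 112 ± 12.6 TPM (-0.34, limma adjusted p = 0.0278), a call lost with no filter and without any one library except TGFB1 replicate 1. The prostaglandin F receptor gene Ptgfr averaged 0 TPM untreated and 0.00634 ± 0.0110 TPM with TGFB1, and Hpgd was listed at 0 in each library.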

How the data were processed

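Poly(A)-selected RNA of 6 libraries was compared, 3 untreated and 3 given TGFB1. The values the authors deposited are a signal on the TPM scale, 1 column per library, with totals of 983434 to 1026702. Per the submitters' processing notes, kallisto 0.44.0, sleuth 0.30.0 and the build GRCm38 were used, with no role stated; for the annotation and the use of strand nothing is stated. It holds no counts, so no depth or counting interval can be stated.

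Groups and replicate numbers came from the labels. Values were taken as log2(TPM + 1), genes averaging 1 TPM or more were kept (12257), and limma 3.58.1 in R 4.3.3 was fitted (lmFit, eBayes with trend). Tests are two-sided, Benjamini-Hochberg adjusted over all tested genes, and called under 0.05. The fit was tested on simulated data. The members and lists were chosen with earlier results of these data known. Genes named by rule are the members, up to 4 called genes of each list with the largest change, fixed regulators, the 5 genes most like Akr1c18, and genes in the 2 clusters. Other listed genes and cell-type markers in the text lie outside this rule and were named with their values known. Positions, transcripts and shared 31-base words come from GENCODE M21 and promoters from RefSeq, handled in Python 3.11.15 with Biopython 1.88. Proteins are the longest closed reading frames, aligned end to end with BLOSUM62. Alternatives covered the pseudocount, filter, scaling, replicate block, repeated rows, summed copies and each library left out.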

Additional observations from a re-analysis of the deposited data

How the results depend on the processing

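With each library left out in turn, between 1113 and 2024 genes were called higher and between 917 and 1926 lower, and among the related genes 11 to 19 higher and 24 to 48 lower. Without any filter 29 related genes were called lower. Leaving out a library leaves its group with 2, so fewer samples enter the fit. With the replicate block 1906 genes were higher and 1924 lower, and 15 and 45 of the related genes. The labels do not say whether the replicate numbers pair the samples. Deviations of same-numbered libraries correlated at 0.198, 0.153 and -0.038 across genes. Untreated replicates 1, 2 and 3 correlated best with TGFB1 replicates 1, 3 and 1. Deviations within a group of 3 are tied to each other, so these values cannot decide whether the numbers pair the samples. The log2 fold change of Akr1c18 ran from -3.70 (pseudocount 0.1 TPM) to -2.77 (5 TPM). The Akr1a1 value, -0.01, was 0.04 under quantile normalization and after rescaling; no related gene past the threshold changed sign in any alternative run. Low abundances are measured less precisely, by an amount the table does not give.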
